A study of Mus musculus with 8 samples.

Results

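Thrombospondin 1 (Thbs1) was studied here together with 8 genes of blood coagulation and plasminogen activation, F3, F5, F10, F13a1, Plau, Plaur, Serpinb2 and Tfpi, in mouse eosinophils from the bone marrow and the small intestine. These 9 of 38392 genes in the expression table were selected on their gene symbols, and the group was chosen because Thbs1 is among the most abundant transcripts of the intestinal libraries. The intestinal level of Thbs1 is therefore a description here and carries no test. The other 8 genes were chosen from the same pathways with earlier results of these data known.

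Coagulation is a cascade of plasma proteases that starts when tissue factor, the product of F3, binds factor VII, passes through factor X with its cofactor factor V, and ends in fibrin cross-linked by factor XIII. Tissue factor pathway inhibitor (Tfpi) stops the first steps. Plasmin dissolves fibrin and cleaves matrix. It is made from plasminogen by urokinase (Plau), which acts at the cell surface on its receptor (Plaur) and is blocked by inhibitors of the serpin family such as Serpinb2. Thrombospondin 1 is a secreted matrix glycoprotein, known from platelet granules, that binds several receptors, affects fibrinolytic proteases and releases TGF-beta from its latent form. Eosinophils are granulocytes made in the bone marrow that settle in the wall of the intestine.

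The series compared wildtype female C57/BL6 mice, for which the labels give no age and the methods only a range over all mice of the study, with 4 RNA-seq libraries from each tissue and no treatment in either group. Intestinal cells were CD11b+, MHC-II-, SiglecF+ and of high side scatter, and bone marrow cells were CD11b+, Ly6G-, Ly6C-, SiglecF+ and of high side scatter. By the methods of the study, intestinal cells came from tissue stripped of epithelium with EDTA, digested warm with collagenase and enriched on anti-CD11b beads, whereas bone marrow was flushed and sorted with neither step. Tissue and handling thus changed together and cannot be told apart. Libraries are named by their table columns, those of bone marrow BM_1, BM_3, BM_4 and BM_5, and those of small intestine SI_6, SI_7, SI_10 and SI_11.

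Reads assigned to genes numbered 11508002 to 21289164 per library. Eosinophil markers (Siglecf, Ccr3, Il5ra, Epx, Prg2, Itgam and Alox15) took 0.109 to 0.144% of these reads in bone marrow and 0.418 to 0.574% in small intestine. Of the 7, 5 were called higher in small intestine, as were 22.0% of all genes. The granule protein genes Epx (349.9 ± 40.2 against 20.6 ± 9.06 normalised counts) and Prg2 (1831 ± 396 against 147 ± 40.7) were called lower there, and the broadly myeloid Itgam had the most reads of the list in bone marrow (14137 ± 1807 normalised counts). Neutrophil precursor markers took 2.45 to 2.85% in the bone marrow libraries and 0.00272 to 0.00304% in the intestinal ones. Of the neutrophil precursor markers, Mpo was the 4th most abundant gene in bone marrow (149860 ± 19352 normalised counts) and Elane the 8th (79791 ± 14221). The ratio of Mpo to Epx by normalised count was 319 to 519 in the bone marrow libraries and 4.78 to 14.7 in the intestinal ones. The bone marrow libraries also held 6630 to 9609 normalised counts of Ly6c2 although the gate was Ly6C-. In these genes they go against their label. Bone marrow levels given here are those of the sorted cells, and the share of eosinophils among them was not tested. BM_5 had reads for 30886 genes where the other bone marrow libraries had 19713 to 24592. In small intestine SI_10 had reads for the most genes (33346, against 26624 to 29133). SI_6 held the most epithelial transcripts (0.134% of reads, against 0.0206 to 0.0531%). Without BM_5 and SI_6 together, an alternative added after the data were seen, the 8 tested genes of the group still passed the limma test in the same direction.

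Sequence upstream of Serpinb2, Plaur, F3 and F10 is shown first. Serpinb2, Plaur and F3 were higher in small intestine and carry a match to the AP-1 motif, while F10, which was lower, carries none. These genes were picked for display because they differ in this way, so the contrast supports nothing further. F5, also higher, carries no match and is not shown, and Thbs1 and Plau had no window. A part of AP-1 in the tissue differences was not tested. The motif searched was TGANTCA, which reads the same on both strands. Each stretch is the 250 bases before the annotated gene start in RefSeq on build GRCm38.p6, 5′ to 3′ on the plus strand, which is the gene's own strand, with AP-1 matches in capitals. The windows are chr1:107511173-107511422 for Serpinb2 (the first of 2 RefSeq starts), chr7:24462233-24462482 for Plaur, chr3:121723287-121723536 for F3 and chr8:13037058-13037307 for F10.
Serpinb2: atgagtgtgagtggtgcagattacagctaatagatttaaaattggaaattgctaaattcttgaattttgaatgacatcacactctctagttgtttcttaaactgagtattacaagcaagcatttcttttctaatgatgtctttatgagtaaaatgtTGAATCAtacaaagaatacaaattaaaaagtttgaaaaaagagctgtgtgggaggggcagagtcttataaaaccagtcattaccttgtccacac
Plaur: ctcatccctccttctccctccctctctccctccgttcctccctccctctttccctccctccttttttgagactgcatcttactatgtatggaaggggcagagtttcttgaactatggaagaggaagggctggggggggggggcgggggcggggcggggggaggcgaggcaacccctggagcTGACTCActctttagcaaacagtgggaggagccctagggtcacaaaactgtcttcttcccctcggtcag
F3: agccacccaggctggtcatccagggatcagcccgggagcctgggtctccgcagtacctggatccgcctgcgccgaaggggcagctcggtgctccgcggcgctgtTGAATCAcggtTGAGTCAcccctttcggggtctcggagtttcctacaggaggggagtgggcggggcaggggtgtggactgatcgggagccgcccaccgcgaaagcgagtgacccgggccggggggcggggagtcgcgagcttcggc
F10: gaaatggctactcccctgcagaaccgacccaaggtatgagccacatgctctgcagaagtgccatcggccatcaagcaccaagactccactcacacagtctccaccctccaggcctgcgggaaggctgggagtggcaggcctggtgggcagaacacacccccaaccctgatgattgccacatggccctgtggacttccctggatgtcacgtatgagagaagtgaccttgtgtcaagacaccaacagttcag

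RefSeq windows were found for 7 of the 9 genes. The Serpinb2 window held TGAATCA 94 bases before the start, the F3 window TGAATCA at 146 and TGAGTCA at 135 bases, and the Plaur window TGACTCA at 69 bases. No match lay in the windows of F5, which was also higher in small intestine, nor in those of Tfpi, F10 and F13a1, which were lower. Of 32817 RefSeq windows of this length, 6.75% held the AP-1 motif. All motifs were searched on both strands. TATAAA, found in 12.4% of windows, lay in those of Serpinb2. In 1 of 2 windows of Tfpi it lay only on the strand opposite to the gene. GGGCGG, the SP1 motif found in 32.7%, lay in those of F5, Tfpi, F3 and Plaur, with 3 matches each in F3 and Plaur. The cyclic AMP element TGACGTCA (1.55% of windows), the core of the aryl hydrocarbon receptor site GCGTG (28.1%) and the NF-kappaB motif (7.25%) had no match in any window of the group. A match is only a run of letters and shows no binding, and its absence from this window says nothing about the factor.

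Across the group the tissues were far apart. Of the 8 genes that were tested, 4 were higher in small intestine (Serpinb2, Plaur, F5 and F3) and 4 were lower (Plau, Tfpi, F13a1 and F10) at a limma adjusted p under 0.05. Of all 38392 genes, 34.9% passed this test, 22.0% as higher in small intestine and 12.9% as lower. Of the 16215 genes that averaged 10 reads or more over all libraries, 63.1% passed. For all 9 genes the libraries of the tissues did not overlap, with small intestine above for 5 and below for 4, as for 20.3% and 13.9% of all genes. All 9 averaged 10 reads or more in at least 1 tissue, and the group was chosen with its levels known, so these counts describe it and support nothing further. In sorted bulk RNA, fewer cells that express a gene and less of its RNA per cell cannot be told apart.

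**Figure D1:**
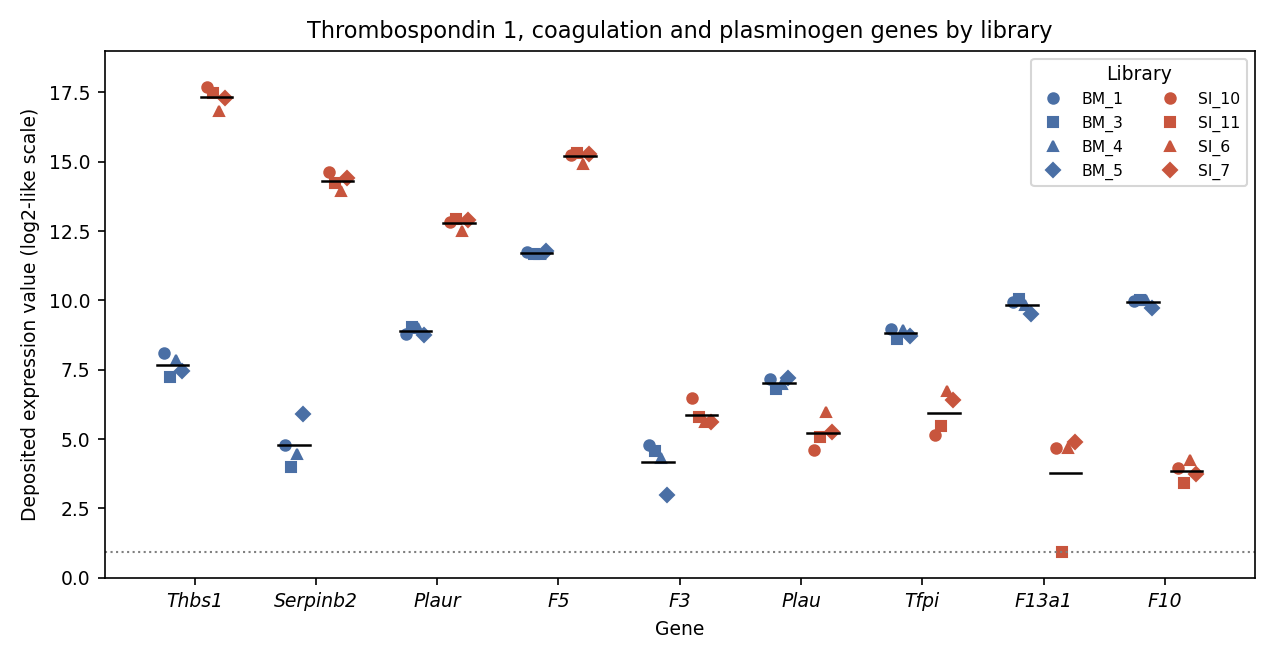
The deposited value of each gene (log2-like scale, vertical axis) is plotted for the 4 bone marrow libraries (blue) and the 4 small intestine libraries (red), with a bar at each group's mean and a dotted line at the value of a gene with no reads. The groups do not overlap for any of the 9 genes, Thbs1 lies highest of all in small intestine, and SI_11 sits on the dotted line for F13a1.

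Thbs1 (ENSMUSG00000040152; GRCm38 chromosome 2, 118111876 to 118127133, plus strand) encodes thrombospondin 1. The bone marrow libraries held 269.7 (BM_1), 148 (BM_3), 229.7 (BM_4) and 173 (BM_5) normalised counts, that is, reads divided by the size factor of the library. The intestinal libraries held 212981 (SI_10), 180884 (SI_11), 116387 (SI_6) and 160429 (SI_7). SI_6 was the lowest of the intestinal libraries and still lay far above every bone marrow library. On average the level was 818-fold higher in small intestine, and the difference was 9.65 ± 0.28 on the deposited log2 scale (SE, n = 4 each), described without a test. Thbs1 was the 5th most abundant gene in small intestine by normalised count and the 11th per kb of exon, and it took 0.749 to 1.40% of the reads there, against 0.00107 to 0.00194% in bone marrow. In bone marrow it ranked 6897th by count. A lincRNA on the opposite strand, Gm29233, shares 208 bp of exon with it and had 0 reads in bone marrow and 176 ± 36.6 normalised counts in small intestine, and since the strand setting of the counting is not given, the reads in that stretch cannot be assigned to either gene.

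The plasminogen genes moved in opposite directions, with the receptor and the inhibitor higher and the protease itself lower. Serpinb2 (ENSMUSG00000062345; chromosome 1, 107511423 to 107535478, plus strand) encodes plasminogen activator inhibitor 2, a mostly intracellular serpin that inhibits urokinase. It had 23.8 (BM_1), 12.4 (BM_3), 18.2 (BM_4) and 55.8 (BM_5) normalised counts in the bone marrow libraries and 25529 (SI_10), 19464 (SI_11), 15620.3 (SI_6) and 21988 (SI_7) in small intestine. All bone marrow libraries were low, with BM_5 above the rest, and all intestinal libraries were high. The rise was 9.53 ± 0.40 on the log2 scale (limma adjusted p = 1.34e-06), close to that of Thbs1, and placed Serpinb2 76th among all genes in small intestine by count and 38th per kb. It shares 291 bp of exon on the same strand with the polymorphic pseudogene Serpinb10, which had 17.8 ± 9.58 and 12.2 ± 10.2 normalised counts in the tissues.

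Plaur (ENSMUSG00000046223; chromosome 7, 24462484 to 24475968, plus strand) encodes the urokinase receptor, a membrane-anchored protein that focuses plasmin formation on the cell surface. Bone marrow libraries held 444 (BM_1), 525 (BM_3), 506 (BM_4) and 425 (BM_5) normalised counts and intestinal libraries 7261 (SI_10), 7785 (SI_11), 5825 (SI_6) and 7591 (SI_7). The replicates were tight, with coefficients of variation of 10.1% and 12.5%, and the tissues differed 15-fold (3.89 ± 0.19 on the log2 scale, limma adjusted p = 2.49e-06). Unlike Serpinb2, the receptor was thus well expressed in both tissues.

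Plau (ENSMUSG00000021822; chromosome 14, 20836660 to 20843385, plus strand), the gene of urokinase, was low in both tissues. It had 139 (BM_1), 108 (BM_3), 123 (BM_4) and 143 (BM_5) normalised counts in the bone marrow libraries and 20.8 (SI_10), 29.6 (SI_11), 58.9 (SI_6) and 34.7 (SI_7) in small intestine. The fall was 3.57-fold (-1.81 ± 0.30 on the log2 scale, limma adjusted p = 0.00161). SI_6, which had the most epithelial and fibroblast transcripts, also had the most Plau, and a part of those cells in its level was not tested.

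Of the 4 coagulation factors in the group, F5 and F3 were higher in small intestine and F10 and F13a1 lower. F5 (ENSMUSG00000026579; chromosome 1, 164151838 to 164220277, plus strand) encodes factor V, the cofactor that speeds the cleavage of prothrombin by factor Xa. Bone marrow libraries held 3463 (BM_1), 3285 (BM_3), 3262 (BM_4) and 3479 (BM_5) normalised counts, and intestinal libraries held 39234 (SI_10), 40555 (SI_11), 31327 (SI_6) and 39627 (SI_7). It was the most even gene of the group in bone marrow, with a coefficient of variation of 3.40%, and the rise of 11.2-fold (3.47 ± 0.18 on the log2 scale, limma adjusted p = 3.11e-06) made it the 24th most abundant gene in small intestine by count and the 77th per kb. A lincRNA on the opposite strand, Gm16548, shares 262 bp of exon with F5 and had 19.8 ± 7.31 and 305 ± 63.8 normalised counts, and a processed pseudogene inside F5, Gm16588, had 5.13 ± 2.26 and 359.97 ± 80.9.

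F3 (ENSMUSG00000028128; chromosome 3, 121723537 to 121735048, plus strand) encodes tissue factor, the membrane protein that starts coagulation. It was the scarcest gene of the group in bone marrow, with 23.8 (BM_1), 20.2 (BM_3), 16.3 (BM_4) and 4.65 (BM_5) normalised counts. Small intestine libraries held 85.3 (SI_10), 52.2 (SI_11), 44.8 (SI_6) and 45.8 (SI_7). The tissues differed 3.51-fold (1.71 ± 0.41 on the log2 scale, limma adjusted p = 0.0116), with the largest adjusted p of the group. It was lost when each library was centred on its median (0.81, limma adjusted p = 0.175) or quantile normalised (1.2, limma adjusted p = 0.166), and at 21 and 49 reads per library on average its counts rest on little depth.

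F10 (ENSMUSG00000031444; chromosome 8, 13037308 to 13056676, plus strand) encodes factor X, the protease that cleaves prothrombin together with factor V. In bone marrow it had 1004 (BM_1), 1032 (BM_3), 1027 (BM_4) and 834 (BM_5) normalised counts. In small intestine 12 (SI_10), 7.11 (SI_11), 15.3 (SI_6) and 9.71 (SI_7) were left, from 6 to 14 reads per library. Every intestinal library was near the limit of detection and every bone marrow library well above it. The fall was 88.3-fold (-6.09 ± 0.23 on the log2 scale, limma adjusted p = 8.06e-07).

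F13a1 (ENSMUSG00000039109; chromosome 13, 36867178 to 37050244, minus strand) encodes the catalytic subunit of factor XIII, the transglutaminase that cross-links fibrin, which is also made inside monocytes, macrophages and megakaryocytes. Bone marrow libraries held 978 (BM_1), 1068 (BM_3), 899 (BM_4) and 727 (BM_5) normalised counts. In small intestine it had 21.9 (SI_10), 0 (SI_11), 21.8 (SI_6) and 26.3 (SI_7), and the count of 0 in SI_11 allows up to 3 reads, or 3.56 normalised counts. The mean fell 52.4-fold (-6.04 ± 0.83 on the log2 scale, limma adjusted p = 6.28e-04), and without SI_11 the difference was -5.08 ± 0.19 (limma adjusted p = 1.95e-05).

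Tfpi (ENSMUSG00000027082; chromosome 2, 84432855 to 84476775, minus strand) encodes the inhibitor of the tissue factor and factor VIIa complex and of factor Xa, which endothelium makes in quantity. Its levels were 497 (BM_1), 387 (BM_3), 489.9 (BM_4) and 422 (BM_5) normalised counts in the bone marrow libraries and 31.7 (SI_10), 40.3 (SI_11), 102 (SI_6) and 80.4 (SI_7) in small intestine. All intestinal libraries were lower, SI_6 and SI_7 less so than the others. The fall was 7.07-fold (-2.89 ± 0.36 on the log2 scale, limma adjusted p = 3.74e-04).

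The order of the genes changed with the tissue. By normalised count per kb of merged exon, a scale that allows levels of different genes to be compared, F5 was highest in bone marrow at 454 ± 15.4 (SD, n = 4), followed by F10 (357 ± 34.5), Plaur (181 ± 18.4), F13a1 (136 ± 21.5), Tfpi (82.2 ± 9.76), Plau (54.3 ± 6.89), Thbs1 (33.8 ± 9.05), Serpinb2 (11.7 ± 8.26) and F3 (6.42 ± 3.28). Only the last pair overlapped in their ranges over libraries. In small intestine Thbs1 led at 27609 ± 6662, followed by Serpinb2 (8791 ± 1778), F5 (5072 ± 575), Plaur (2719 ± 339), F3 (22.6 ± 7.59), Plau (15.2 ± 6.90), Tfpi (11.6 ± 6.05), F10 (4.04 ± 1.27) and F13a1 (2.60 ± 1.76). The leading 4 were separate from each other and from the rest, whereas F3, Plau and Tfpi all overlapped each other, as did F10 and F13a1. The level per kb of Thbs1 thus moved from the 7th place of the group to the first, and that of F10 from the 2nd to the 8th.

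**Figure D2:**
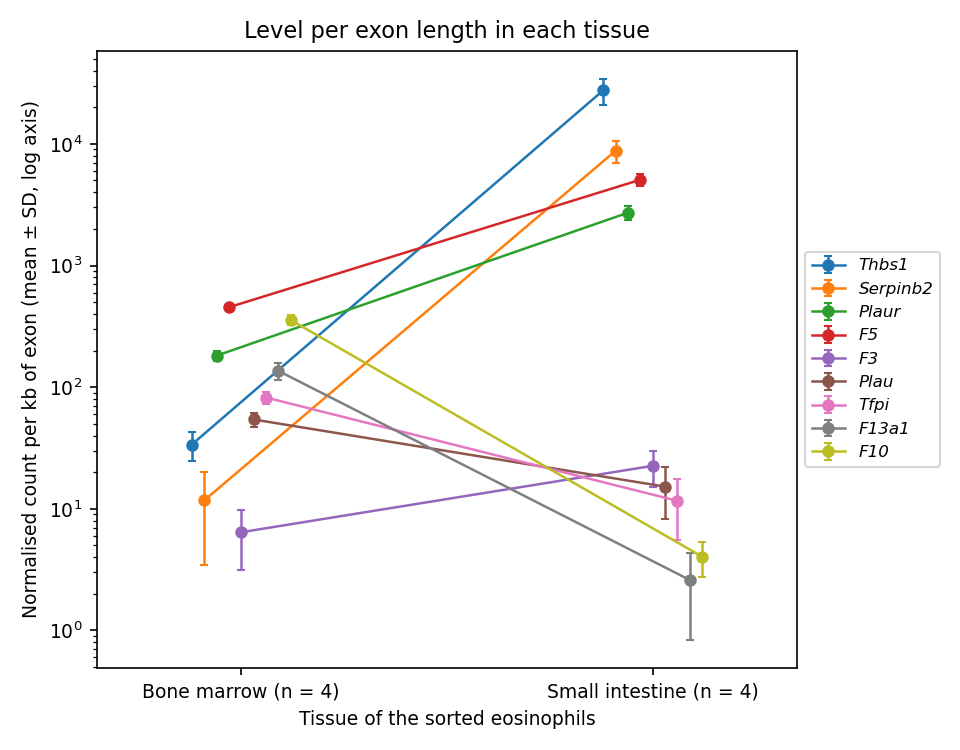
Mean level per kb of exon (normalised count per kb, log axis, bars of 1 SD, n = 4) is joined by a line from bone marrow to small intestine for each gene. Thbs1 and Serpinb2 rise from the low end to the top, F5 and Plaur rise from the upper part, and F10 and F13a1 drop to the bottom of the plot.

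Ratios within a library do not depend on how libraries were scaled against each other, and they set the partners of each step side by side. Per kb, the urokinase receptor exceeded urokinase by 2.68 to 4.41 in bone marrow and by 89.4 to 316 in small intestine. Serpinb2 to Plau went from 0.116 to 0.393 in bone marrow to 267 to 1238 in small intestine. Factor V exceeded factor X by 1.17 to 1.53 in bone marrow, where the cofactor and the protease were close in level, and by 753 to 2096 in small intestine. Tfpi exceeded F3 by 8.86 to 42.0 in bone marrow, while in small intestine the ratio was 0.172 to 1.05, with Tfpi above F3 per kb only in SI_6. The intestinal ratios rest on 33 to 78 reads of F3 and 29 to 93 of Tfpi per library. By normalised count, not divided by exon length, Tfpi was above F3 in SI_7 as well (80.4 against 45.8). Thbs1 to F5 rose from 0.0551 to 0.0953 in bone marrow to 4.55 to 6.64. Thbs1 to Serpinb2, in contrast, overlapped between the tissues, at 1.2 to 4.89 in bone marrow and 2.82 to 3.59 in small intestine. In the intestinal libraries this ratio spanned a narrow range although the coefficients of variation of the genes themselves were 24.1% and 20.2%, since SI_6 was lowest and SI_10 highest in both.

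**Figure D3:**
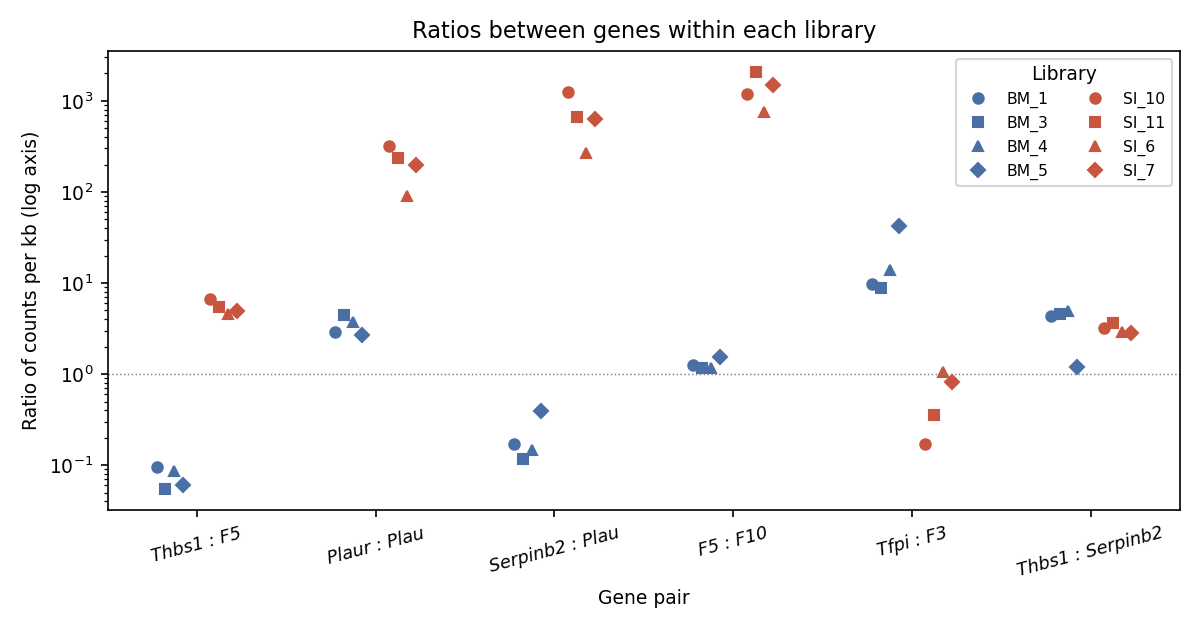
Ratios of normalised counts per kb within each library (log axis) are shown for 6 gene pairs, with bone marrow libraries in blue and small intestine libraries in red and a dotted line at equal levels. Plaur to Plau, Serpinb2 to Plau, F5 to F10 and Thbs1 to F5 are higher in every small intestine library, Tfpi to F3 is lower in every one, and Thbs1 to Serpinb2 overlaps.

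The remaining genes of the pathways were taken as 5 lists of known pathway genes. Of the 57 listed genes outside the group, 56 were in the table, of which 27 were higher in small intestine, 9 were lower and 20 did not pass the test. Over all genes 22.0% were higher and 12.9% lower. Of the 16215 genes that averaged 10 reads or more over all libraries, 5603 were higher and 4630 lower, 63.1% in all. The same shares stand beside the counts of each list below, which describe the lists and support nothing further. Klkb1 was not analysed here. Many of these genes are made chiefly by the liver and had few reads.

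In the plasminogen system, 4 of 10 listed genes outside the group were higher in small intestine and 2 were lower, with a median difference of 1.03 against 0.37 over all genes. Plat, tissue plasminogen activator, rose by 3.54 ± 0.48 from 0.860 ± 1.32 to 34.1 ± 21.1 normalised counts (limma adjusted p = 6.02e-04), and S100a10, a cell surface plasminogen receptor subunit, rose by 3.03 ± 0.30 (limma adjusted p = 9.7e-05). Serpine2, protease nexin 1, an inhibitor of thrombin and urokinase, fell from 503 ± 77.5 to 21.1 ± 4.64 normalised counts (-4.36 ± 0.22, limma adjusted p = 3e-06). Anxa2, the partner of S100a10, fell by 0.94 ± 0.27 (limma adjusted p = 0.024), a call lost without BM_1, BM_3, BM_4, SI_10 or SI_11. Plasminogen itself (Plg) had 1.49 ± 2.19 and 8.55 ± 15.5 normalised counts.

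Of the 12 other coagulation factors in the table, 4 were higher in small intestine, 1 was lower and 7 did not pass, with a median difference of 1.08. The 5 calls became 3 without BM_3 and 3 without SI_6. Vwf, the platelet-binding carrier of factor VIII, rose by 2.99 ± 0.55 from 15.2 ± 11 to 117 ± 18.7 normalised counts (limma adjusted p = 0.00299). F12, factor XII of the contact pathway, rose by 2.62 ± 0.45 from 2.17 ± 2.0 to 23.9 ± 6.78 (limma adjusted p = 0.00193). F7, the protease partner of tissue factor, was the only one that fell, from 10.9 ± 4.82 to 1.99 ± 3.12 normalised counts (limma adjusted p = 0.0238), and its call was lost without BM_3, BM_5, SI_6, SI_7 or SI_11. Per kb of exon, Vwf (7.26) and F12 (12.2) had low levels in small intestine beside F5 (5072).

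Among 9 other anticoagulant proteins, 4 were higher, 1 was lower and 4 did not pass, with a median difference of 1.09. Procr, the endothelial protein C receptor, rose by 2.75 ± 0.48 from 0.930 ± 1.86 to 15 ± 6.91 normalised counts (limma adjusted p = 0.00214). Serpinc1 (antithrombin) and Serpind1 (heparin cofactor II) rose by 1.21 ± 0.25 and 1.07 ± 0.29 (limma adjusted p = 0.00509 and 0.0198), and neither call held after median-centring or quantile normalisation, nor that of Serpind1 without BM_1 or SI_10. Called genes of the list numbered 3 without SI_10. Tfpi2, a relative of Tfpi that inhibits plasmin, fell with Tfpi, from 17.4 ± 7.78 to 1.74 ± 0.526 normalised counts (-2.07 ± 0.30, limma adjusted p = 8.64e-04). Thrombomodulin (Thbd), which turns thrombin towards protein C, had 122 ± 18 normalised counts in the bone marrow libraries and 123 ± 13.8 in small intestine (0.02 ± 0.19, limma adjusted p = 0.958).

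Other thrombospondins were near the limit of detection where Thbs1 was abundant: Thbs2, Thbs3, Thbs4 and Comp had means of 9.77 to 18.9 normalised counts in small intestine. Of the 17 thrombospondins and receptors outside the group, 10 were higher in small intestine, 2 were lower and 5 did not pass (median difference 1.64). All 17 averaged 10 reads or more in a tissue. Of genes that averaged 10 reads or more over all libraries, a stricter filter, 63.1% passed. Itga3 (4.77 ± 0.66, limma adjusted p = 6.34e-04) and Sdc4 (4.2 ± 0.50, limma adjusted p = 2.77e-04), an integrin chain and a syndecan that bind thrombospondin 1, had the largest rises together with Adamts1 (4.24 ± 0.52, limma adjusted p = 3.16e-04), a protease that cleaves it. Itga3 and Sdc4 were highest in SI_6, at 294 and 993 normalised counts, where epithelial transcripts were also highest, and a part of those cells was not tested. Itga4, an integrin chain of leukocytes, was after Thbs1 the most abundant of the list per kb in small intestine and rose by 3.17 ± 0.18 from 3961 ± 208 to 35889 ± 4807 normalised counts (limma adjusted p = 6.13e-06). The fallers were Cd47, the surface receptor of the thrombospondin 1 carboxyl end (-1.84 ± 0.19, limma adjusted p = 1.42e-04), and Calr, calreticulin (-3.02 ± 0.27, limma adjusted p = 5.22e-05).

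Of 9 genes of protease-activated receptors and of clotting factor maturation, 5 were higher, 3 were lower and 1 (Ggcx) did not pass. All 9 averaged 10 reads or more in a tissue. Of genes that averaged 10 reads or more over all libraries, a stricter filter, 63.1% passed. The thrombin receptors F2r (3.71 ± 0.38, limma adjusted p = 1.23e-04) and F2rl3 (2.83 ± 0.26, limma adjusted p = 7.46e-05) and the trypsin and tryptase receptor F2rl1 (4.61 ± 0.67, limma adjusted p = 8.59e-04) rose, with F2r going from 12.2 ± 7.62 to 191 ± 54.2 normalised counts. F2rl1 was, like Itga3, highest in SI_6 (201 normalised counts). Furin, a protease of secretory maturation, rose by 1.90 ± 0.21 (limma adjusted p = 1.88e-04), a call lost after median-centring. Lman1 and Mcfd2, which form the receptor that carries factor V and factor VIII out of the endoplasmic reticulum, fell by 2.07 ± 0.23 and fell by 1.31 ± 0.21 (limma adjusted p = 1.79e-04 and 0.00156), while F5 rose. Vkorc1, of the vitamin K cycle that factor X and factor VII need for carboxylation, fell by 1.89 ± 0.22 (limma adjusted p = 2.63e-04), as F10 and F7 did.

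**Figure D4:**
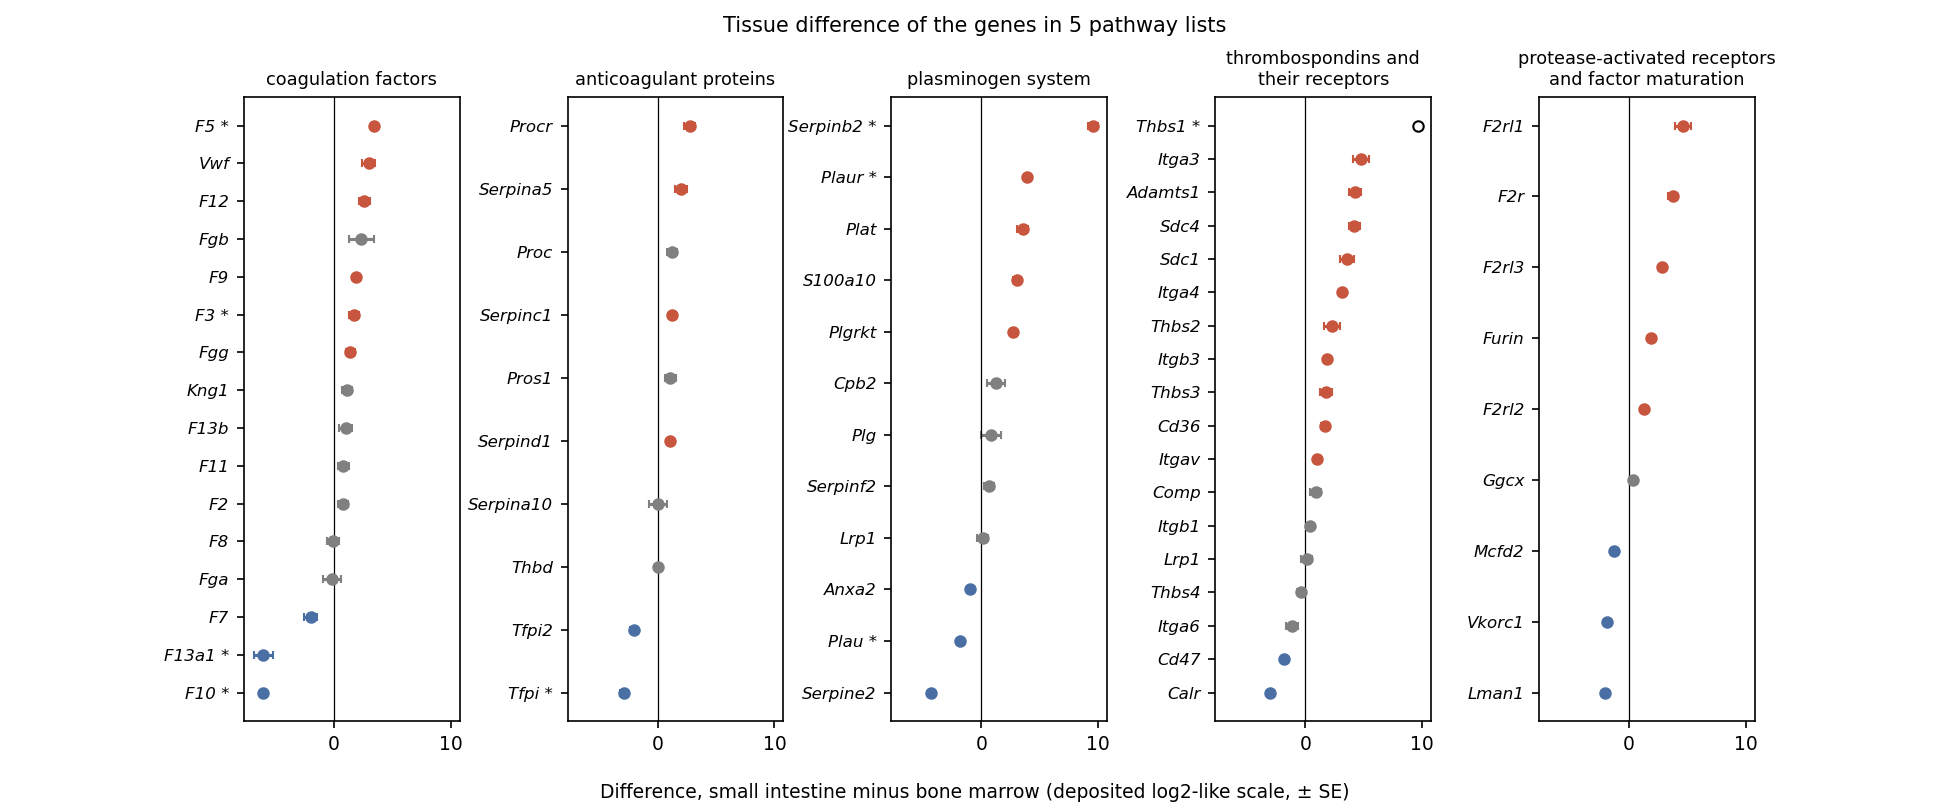
The difference between small intestine and bone marrow (deposited log2-like scale, bars of 1 SE) is shown for genes of the 5 pathway lists, in red for genes called higher, blue for lower and grey for not called, with a star at the genes of the group and an open circle for Thbs1, which was not tested. Serpinb2 stands far to the right of the other plasminogen genes shown, and F10 and F13a1 far to the left of the other coagulation factors. Grey genes range from -1.13 (Itga6) to 2.35 (Fgb).

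Protein-coding genes with the most similar pattern, predicted genes left out, were found by the root mean square difference of deposited values over the 8 libraries, which asks for a like level as well as a like change. This was done for members with a mean of at least 100 normalised counts in a tissue, which F3 did not reach. For Thbs1 the nearest were Tnfaip3 (1.29 on the log2 scale), Tgm2 (1.44), Rgs1 (1.59), Retnlg (1.65) and Dusp1 (1.67). No gene compared came within 1 unit of Thbs1, but it was chosen for its high intestinal level, which few genes reach. F5 lay nearest to Itga4 (0.19) and Fth1 (0.45), Plaur to Lpcat2 (0.12) and Usp32 (0.17), Plau to Btbd6 (0.21) and Rnf217 (0.24), and Tfpi to Ctps (0.18) and Mid1ip1 (0.28). Serpinb2 lay nearest to Itgax (0.55). F10 and F13a1 shared the same pair, Olfml2b (0.28 and 0.93) and Tshr (0.48 and 1.02).

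Some of the genes lie beside relatives on the chromosome, and the nearest protein-coding neighbours, chosen after the data were seen, did not all move with them. Selp, which encodes P-selectin, lies 1812 bp from F5 and rose like it, from 12.3 ± 5.16 to 273 ± 51.3 normalised counts (4.16 ± 0.28, limma adjusted p = 1.22e-05). F7 lies 1499 bp from F10 and fell like it, whereas Proz, 4238 bp on the other side, had 27.9 ± 7.69 and 25.6 ± 9.39 normalised counts (-0.13 ± 0.31, limma adjusted p = 0.76). Beside Serpinb2, Serpinb8 rose by 2.03 ± 0.52 (limma adjusted p = 0.0153) to 42.2 ± 11.5 normalised counts and Serpinb7 had 4.94 ± 4.60 in small intestine (0.93 ± 0.87, limma adjusted p = 0.464). Calcrl, 7444 bp from Tfpi, fell by 0.88 ± 0.18 (limma adjusted p = 0.00484). Fsip1, 3291 bp from Thbs1, had 5.63 ± 2.66 normalised counts in small intestine (1.18 ± 0.41, limma adjusted p = 0.0533). Other called neighbours moved against the gene beside them. Nrn1 (2.69 ± 0.57) and Ly86 (1.22 ± 0.25) rose beside F13a1, Camk2g (1.15 ± 0.17) rose beside Plau, and Abcd3 (-1.27 ± 0.32) fell beside F3. Slc19a2 beside F5, and Irgc1 and Cadm4 beside Plaur, rose as those genes did.

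Several members are also made by other cells, whose marker lists are given as summed shares of reads. Counts of called markers, here and below, stand beside 22.0% higher and 12.9% lower over all genes. Of genes that averaged 10 reads or more over all libraries, 63.1% were called. Of 12 megakaryocyte and platelet genes, which matter for Thbs1, F5, F13a1 and Vwf, 2 were higher in small intestine, 1 was lower and 9 did not pass, and the sum was 0.00141 to 0.00264% in bone marrow and 0.00559 to 0.00786% in small intestine. Pf4 (17.3 ± 11.7 normalised counts), Gp9 (4.19 ± 3.63), Gp5 (2.01 ± 2.38) and Tubb1 (0.547 ± 1.09) had few reads in small intestine. Ppbp rose from 70.4 ± 51.4 to 468 ± 53.9 normalised counts and Itga2b from 20.3 ± 11.6 to 446 ± 128. The part of platelets and megakaryocytes in the levels of Thbs1, F5, F13a1 and Vwf was not tested.

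Of 13 monocyte and macrophage genes, 8 were higher and 1 was lower in small intestine, and their sum went from 0.0583 to 0.0753% to 0.0968 to 0.103%, led by Adgre1 (13672 ± 1373 normalised counts), which encodes F4/80 and is also made by eosinophils. Of 9 endothelial genes, relevant to Vwf, Procr and Tfpi, 7 were higher and 1 was lower, with sums of 0.00460 to 0.00566% and 0.0489 to 0.0575%. Most of that was Pecam1 (8162 ± 1127 normalised counts), also a leukocyte gene, and Cdh5 had 95.0 ± 21.6, Kdr 86.8 ± 37.3 and Cldn5 7.98 ± 0.381. All 8 epithelial genes and 6 of 7 fibroblast genes were higher in small intestine, with sums of 0.0206 to 0.134% and 9.23e-04 to 0.00484%, both highest in SI_6. Plau and Tfpi were highest in that library as well, whereas Thbs1, Serpinb2, Plaur and F5 were lowest in it. Of 6 mast cell genes 1 was higher and 2 were lower, with sums of 0.0199 to 0.0275% in bone marrow and 0.00358 to 0.0122% in small intestine. All 7 neutrophil precursor genes were lower in small intestine, as were F10, F13a1, Tfpi and Plau, and the part of these cells in the bone marrow levels of the latter was not tested.

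Genes of the response to tissue dissociation (Fos, Jun, Egr1, Atf3, Dusp1, heat shock genes and others) were higher in small intestine, 16 of 16, against 22.0% of all genes. They summed to 0.00969 to 0.0120% of the reads in bone marrow and 0.619 to 0.792% in small intestine. Fos, an AP-1 subunit, had 96.2 ± 12.5 and 13015 ± 2701 normalised counts. Only the intestinal cells went through warm digestion, and the part of this response in the levels of Thbs1, Serpinb2, Plaur, F5 and F3 was not tested.

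**Figure D5:**
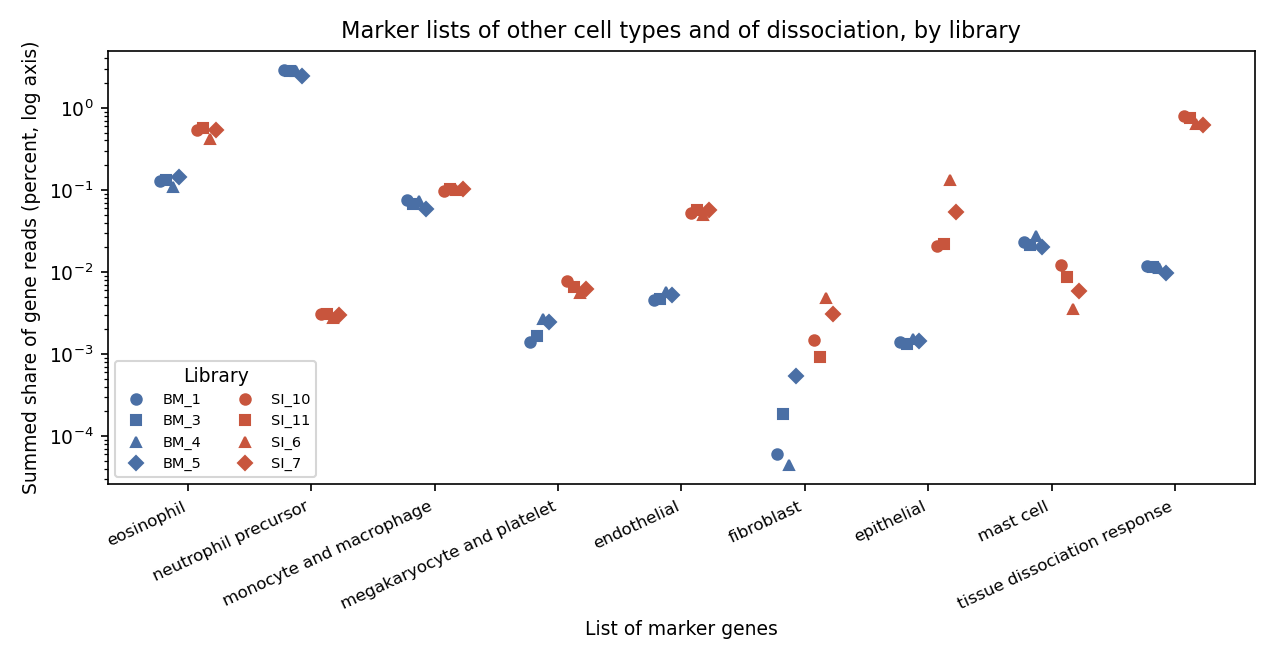
The summed share of gene reads (percent, log axis) is plotted per library for 9 lists of marker genes, with bone marrow in blue and small intestine in red. Neutrophil precursor genes are high in bone marrow only, dissociation genes are high in small intestine only, and the epithelial and fibroblast sums of SI_6 lie above those of the other intestinal libraries.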

How the data were processed

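Expression was measured by single-end RNA-seq of amplified cDNA from 4 bone marrow and 4 small intestine eosinophil samples. By the paper's methods and the labels, the authors aligned reads to GRCm38, counted them per gene with nf-core/rnaseq and applied the variance-stabilising transformation of DESeq2 in R 4.0.3, and the deposited values are on that log2 scale. How strand and multiply matching reads were handled is not given in the sources used here. Column names showed the tissue of a library but not its sample, and are kept as library names.

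The members and lists were chosen with earlier results of these data known. Whole reads were recovered from the deposited log2 values through their lowest value, 0.92971568, and size factors of 0.721 to 1.53. They came out whole within 0.05 for 100% of values, and normalised counts are reads divided by size factors. Depth limits precision chiefly for genes under about 10 reads, and limits for counts of 0 cover counting error only. The deposited values of the tissues were compared with limma 3.58.1 (R 4.3.3, constant prior, no covariate, no filter), with 2-sided p-values adjusted by Benjamini-Hochberg over 38392 genes and a threshold of 0.05. The authors fitted DESeq2 to counts, and limma replaced it because the deposited unit is log2. Differences are small intestine minus bone marrow. By the paper, replicates are mice. The test was also run on simulated reads in which few genes changed, up and down alike. That run cannot show how the scaling of libraries affects the calls.

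Named from each pathway list, among genes that averaged 10 reads or more in a tissue, were the 3 called with the largest rise, the 3 with the largest fall and the highest per kb in each tissue, and from each marker list the most abundant genes. Thbs2, Thbs3, Thbs4, Comp, Plg, Pf4, Gp5, Tubb1, Kdr, Cldn5, Egr1, Jun and Atf3 were named after their values were seen, and 1 listed gene is counted but not reported here. Exon lengths and coordinates came from GENCODE M21 (GRCm38), in which all 38392 identifiers were found. Upstream sequences came from RefSeq (GRCm38.p6). Figures used Python 3.11.15 and matplotlib 3.10.9. Alternatives were voom on recovered reads, median-centring, quantile normalisation, a filter on reads, logs with pseudocounts of 1 and 5, a trended robust prior and leaving out each library.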

Additional observations from a re-analysis of the deposited data

Results flagged for a closer look

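In 88 groups of 4 libraries, each a gene of the group, a named pathway gene or a marker list in 1 tissue, 4 held a library far from the other 3, by the gap to the nearest other library as a share of the group's range, past Dixon's 95% limit. Chance gives about 1 in 20, or 4.4 of 88. F10 in bone marrow was lowest in BM_5 (gap share 0.871), at 834 normalised counts. F5 in small intestine was lowest in SI_6 (0.872), at 31327. F13a1 in small intestine was lowest in SI_11 (0.941), which had 0 reads. Procr in bone marrow was highest in BM_5 (1), at 3.72 normalised counts, with 0 reads in the other 3.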

How the results depend on the processing

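No paired analysis was possible because the library columns of the 2 tissues share no replicate number. Over 16 alternatives and the 8 tested genes, 126 of 128 values kept their direction and side of the threshold and 0 reversed. The exceptions were those of F3, whose call was lost after median-centring (0.81) and quantile normalisation (1.2). The untested difference of Thbs1 was 8.75 after median-centring. The limma adjusted p of F3 ranged from 4.88e-04 to 0.175 over the alternatives, and it reached at most 0.0111 for F13a1, 0.00715 for Plau and 0.00235 for Tfpi. Median-centring moved the median difference of all genes from 0.37 to -0.53, and quantile normalisation to -0.03, so with median-centring 4285 genes were called higher and 10216 lower (29.5% higher, against 63.2%, and 45.8% after quantile normalisation). Leaving out single libraries gave 10982 to 14670 calls, 6701 to 9596 higher and 4281 to 5166 lower, and 4 higher and 4 lower members each time. Called coagulation factors outside the group, 5 in all, were 2 with a mean of at least 10 reads required and 3 to 7 without single libraries (3 without BM_3 and 3 without SI_6). Called anticoagulant genes, 5 in all, were 3 after median-centring, 3 after quantile normalisation, 3 with the filter and 3 to 6 without single libraries (3 without SI_10). The cause of these changes was not tested, beyond the filter's smaller number of genes. Leaving out BM_5 and SI_6 together, chosen after the data were seen, gave 14811 calls. Of 26 named pathway genes outside the group, 21 kept their call under all alternatives that held them. Among these 21, Procr was removed by the filter on reads. Thbd was not called under any alternative, and its difference changed direction under 7.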
